A study of Mus musculus with 2 samples.

Results

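CpG-poor protein-coding promoters were the 480 regions of the deposited table, out of 6976 autosomal regions with their centre within 1000 bp of a protein-coding start (6.88%) and 14994 regions in all, whose CpG observed-over-expected ratio was under 0.4. The ratio is the number of CpG dinucleotides in a region times its length, divided by the product of its C and G counts. The choice used position and sequence and no measured value. The 480 regions belonged to 461 genes of chromosomes 1 to 19. The data came from STARR-seq, a reporter assay in which genomic fragments are carried on an episome inside a transcribed reporter, so that an active fragment raises the amount of its own RNA. There was 1 group, activated T-helper 1 (Th1) primary cells of mouse strain C57BL/6NJ, transiently transfected, with 2 biological replicates that carry the same donor label and whose age is unknown. Anti-CD28 (1 ug/mL) was given together with anti-CD3e (0.25 ug/mL) for 3 days, and the cytokines interleukin-12 p70 and interleukin-2 (both at 10 ng/mL) with an antibody to interleukin-4 (2 ug/mL) for 4 days, with some doses given by the label of 1 replicate alone. Each output library started from 30 ug of nucleic acid with fragments of 200 to 400 bp. There was no other condition, and the table pools both replicates, so values have no replicate error and no condition was compared. The table holds no expression of the cells' own genes, so the cell type could not be checked against its markers.

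The effect of a region is the authors' signed score. A positive effect was read as output above input, the usual orientation of the assay, although its direction, scale and log base are not stated. The table lists only regions whose adjusted p in the authors' deposited table is under 0.01. The deposited p-values gave 114722 tested regions, of which 13.1% were listed, so a region without a row was either not tested or not called. Shares below carry a 95% Wilson interval, which covers counting error over regions only, and medians a 95% order-statistic interval. Regions of 1 gene or 1 gene cluster share sequence and are not independent. Library depth is unknown.

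Mammalian promoters fall into a CpG-rich class, which lies in CpG islands and serves mostly housekeeping and developmental genes, and a CpG-poor class, which often has focused initiation, sometimes a TATA box, and serves many tissue-restricted and inducible genes. Among the inducible ones in lymphocytes are interferon-stimulated genes, whose promoters bind interferon regulatory factors (IRF) and the STAT complex ISGF3 at the interferon-stimulated response element (ISRE), a pair of GAAA repeats with a short spacer.

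The sequences that carry the clearest group are shown first, because the ISRE letters (GAAA, any 2 bases and GAAA again), searched on both strands, lay just before the start in many of the strongest CpG-poor promoters with a unique sequence (fewer than 2 matches of the central 300 bp in the genome). They are the bases from -100 to -1 before the annotated start, on the strand of the gene (5′ to 3′, GRCm38), with the ISRE letters on either strand in capitals. Overlapping matches run together.
Trim5: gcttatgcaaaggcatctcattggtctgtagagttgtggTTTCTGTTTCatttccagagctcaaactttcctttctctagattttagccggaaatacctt
Ifi203: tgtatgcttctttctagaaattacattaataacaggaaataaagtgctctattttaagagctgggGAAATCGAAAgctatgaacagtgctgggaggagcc
Zbp1: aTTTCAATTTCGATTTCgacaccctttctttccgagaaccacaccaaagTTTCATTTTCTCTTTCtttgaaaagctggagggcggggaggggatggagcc
Ifit1bl2: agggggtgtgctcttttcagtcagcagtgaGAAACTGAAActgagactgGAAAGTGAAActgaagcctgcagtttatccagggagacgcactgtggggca
Isg15: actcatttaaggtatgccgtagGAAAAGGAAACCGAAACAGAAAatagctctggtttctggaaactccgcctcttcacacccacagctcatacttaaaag
Igtp: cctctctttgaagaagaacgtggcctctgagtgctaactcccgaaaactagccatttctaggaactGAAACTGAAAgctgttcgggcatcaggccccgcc
Irgm2: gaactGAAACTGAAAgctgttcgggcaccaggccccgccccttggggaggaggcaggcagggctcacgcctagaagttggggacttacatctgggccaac
The windows lie at chr7:104288095-104288194 (Trim5), chr1:173942493-173942592 (Ifi203), chr2:173218924-173219023 (Zbp1), chr19:34640744-34640843 (Ifit1bl2) and chr4:156200819-156200918 (Isg15), all on the minus strand, and at chr11:58199456-58199555 (Igtp) and chr11:58214908-58215007 (Irgm2) on the plus strand. None overlaps an annotated exon. Trim5 follows from the rule for named genes, and the others, like most sequences shown further on, were chosen after their values were seen. Zbp1 held 4 matches in its window, Isg15 held 3 and Ifit1bl2 held 2. Igtp and Irgm2 shared an unbroken run of 27 bases around the match, which began 34 bases before the start in Igtp and 95 bases before it in Irgm2.

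Of the 480 CpG-poor promoter regions, 451 had a positive effect (94.0%, 91.5 to 95.8) and 29 a negative one, where 80.7% of all listed regions were positive. The other 6496 protein-coding promoters, with a ratio of 0.4 or more, were positive in 71.8% (70.7 to 72.9). The intervals did not overlap, and the shares differed by 22.1 percentage points. CpG-poor regions farther than 1000 bp from a start (5294 distal regions) were positive in 86.4% (85.4 to 87.3). The positive effects were slightly smaller in CpG-poor promoters, with a median of 0.77 (0.74 to 0.79) beside 0.80 (0.79 to 0.81) in positive other promoters, and 0.72 among positive CpG-poor promoters with no copies elsewhere in the genome. At an adjusted p under 0.001 the order turned, with 0.93 in CpG-poor and 0.89 in other promoters. Negative CpG-poor promoters had a median of -0.77, and negative other promoters of -1.18. Over all 480 the median was 0.74 (0.72 to 0.77), with a range from -1.38 (Cxcl9) to 7.50 (Gvin1).

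Within the CpG-poor range the share of positive regions had no steady order. It was 93.2% of 59 regions at a ratio under 0.1, 96.4% of 83 at 0.1 to 0.2, 89.2% of 139 at 0.2 to 0.3 and 96.5% of 199 at 0.3 to 0.4. It stayed at 95.9% of 241 regions at 0.4 to 0.5, just above the limit, then fell step by step to 52.0% of 1037 regions at 0.9 to 1.0 and 29.2% of 72 at 1.1 or more. Just inside the limit lay Setmar (effect 0.66), St3gal4 (0.90) and Tmem211 (0.78), and just outside it Mterf1a (3.09), Mterf2 (0.58) and 1700125H20Rik (0.51).

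**Figure D1:**
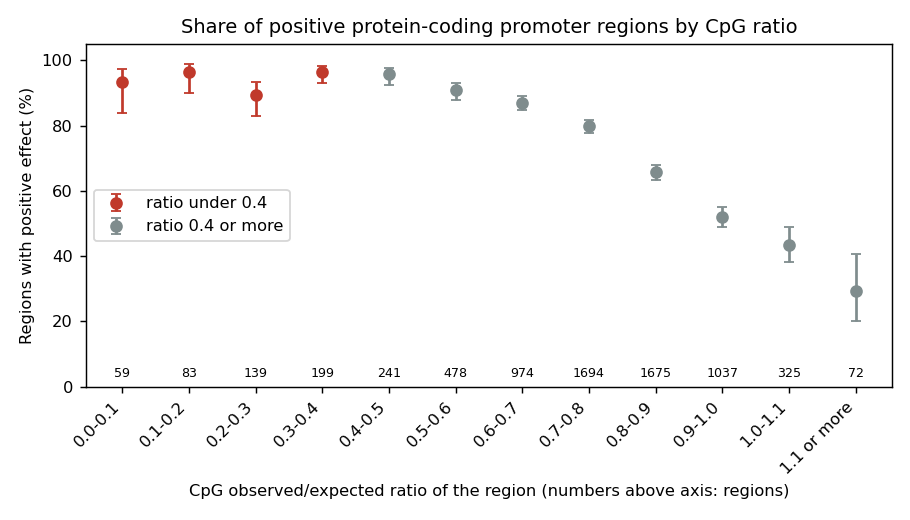
Percent of autosomal protein-coding promoter regions with a positive effect (y axis) by class of CpG observed-over-expected ratio (x axis), with 95% Wilson intervals as bars and the number of regions above the axis; red marks the CpG-poor promoters. The red points and the grey point at 0.4 to 0.5 lie between 89.2% and 96.5%, and the grey points fall to 29.2% at a ratio of 1.1 or more.

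CpG ratio and GC content move together, and the groups differed in both: the median GC content was 53.2% in CpG-poor promoters and 63.5% in other promoters. At 50 to 55% GC, 169 of 176 CpG-poor promoters were positive (96.0%) beside 96.4% of other promoters. At 55 to 60% all 122 were positive (97.0 to 100) beside 96.2%, and at 60 to 65% all 33 were (89.6 to 100) beside 90.0%. With the GC classes of the CpG-poor promoters given to the other promoters, 91.3% of those were positive, and 93.0% of CpG-poor distal regions. At equal GC content the shares of CpG-poor and other promoters thus differed by 2.66 percentage points. The standardised share rests on only 11 other promoters at 40 to 45% GC and 3 under 40%. At the edges of the GC range the CpG-poor promoters were positive less often than between them. At 40 to 45% GC 40 of 53 were (75.5%, 62.4 to 85.1), beside 9 of 11 other promoters (81.8%, 52.3 to 94.9). At 65% or more 9 of 14 were (64.3%, 38.8 to 83.7), more often than the 41.6% of other promoters.

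**Figure D2:**
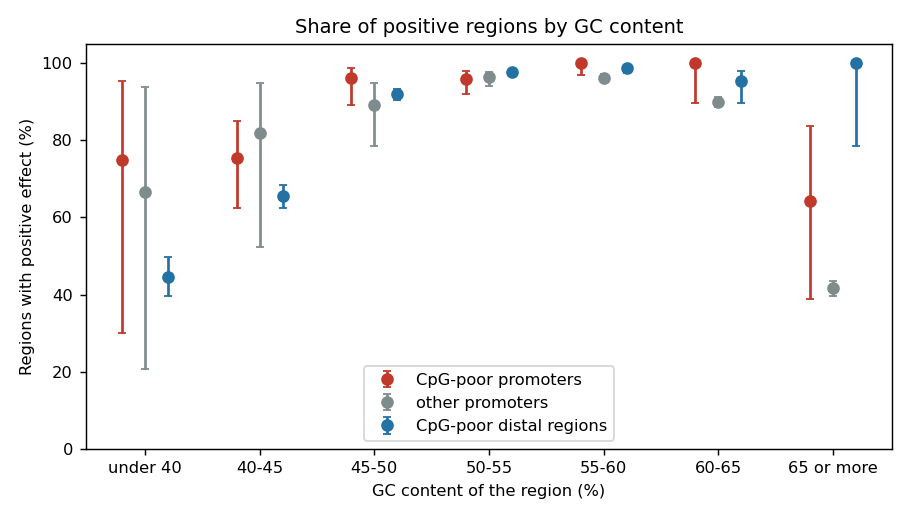
Percent of regions with a positive effect (y axis) by GC content in percent (x axis) for CpG-poor promoters (red), other protein-coding promoters (grey) and CpG-poor distal regions (blue), with 95% Wilson intervals as bars. Between 50 and 60% GC the 3 groups are close together, and at 65% or more the other promoters fall to 41.6%.

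CpG-poor promoters were also scarce in the table. Of 20696 protein-coding genes, 6907 (33.4%) had a ratio under 0.4 in the 500 bp around every annotated start. Of these genes 298 (4.31%) had a listed promoter region of any kind, beside 44.4% of the other genes; how many of them were tested is unknown. Which CpG-poor genes were listed differed by class. Among genes of the interferon response 50 of 116 had a listed promoter region (43.1%), among genes of the T cell receptor and its costimulators 17 of 71 (23.9%), among zinc finger genes 19 of 80 (23.8%) and among genes of MHC and antigen presentation 7 of 27 (25.9%). Cytokines and their receptors gave 10 of 100 and chemokines and their receptors 5 of 49. Genes of cytotoxic granules and natural killer receptors gave 3 of 47 (6.38%), closer to the 4.31% of all CpG-poor genes. Classes of other tissues were rare: 4 of 274 liver genes, 1 of 177 keratin and cornified envelope genes, 0 of 45 muscle genes, 0 of 21 erythroid and platelet genes, and 2 of 1504 olfactory, vomeronasal and taste receptor genes (0.133%). Markers of B cells and myeloid cells gave 3 of 72 (4.17%), near the share of all CpG-poor genes. Genes of ribosomal proteins had 68 listed promoter regions, and none was CpG-poor.

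Genes of the interferon response made up the largest of the lists, with 49 of the 480 regions. Of these 48 were positive (98.0%, 89.3 to 99.6), beside 93.5% (90.8 to 95.5) of the 431 other CpG-poor promoters, so the intervals overlapped. The median effect was 1.16 (the median of all 431 other CpG-poor promoters was 0.73). The CpG-richer promoter regions of the same list were positive in 36 of 45, with a median of 0.78. Of the 49 CpG-poor interferon regions 34 had an effect above 1, where 22.8% of all listed regions and 125 of the 480 (26.0%) did. That share of CpG-poor promoters was 13.9% in regions with a unique sequence and 43.4% at an adjusted p under 0.001. The 18 interferon regions with copies elsewhere in the genome raised the median: the 31 regions with a unique sequence had a median of 1.01. The highest of those was Trim5 (effect 3.51, chr7:104287576-104288300), of the TRIM family of antiviral ubiquitin ligases. Ifi203, of the Ifi200 family that binds DNA, followed with 2.51, Zbp1, a sensor of Z-form nucleic acids, with 2.18, and Ifit1bl2, of the IFIT family that binds viral RNA, with 2.16. Isg15, a ubiquitin-like modifier, had 1.58, as did Ifi27. Of the genes that act in the pathway itself, Irf9, the DNA-binding subunit of ISGF3, had 1.02. Irf5 had 0.85, and its CpG-richer promoter region had -0.78. Further unique regions above 1 were Oasl1 (1.36), Oasl2 (1.19), Rtp4 (1.14), Trim30a (1.06) and Trim34a (1.01), and those below 1 were Trim30b, Xaf1, Slfn3, Ifi208, Ifi35, Trim21, Trim69, Ms4a4b, Parp14 and Trim14, from 0.97 down to 0.56. Dhx58, which encodes the RNA helicase LGP2, was the 1 negative CpG-poor region of the list (-0.97, chr11:100704001-100704575). The negative Cxcl9, given with the chemokines further on, was not in this list.

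The guanylate-binding proteins and immunity-related GTPases, interferon-induced GTPases that attack intracellular pathogens, were positive in each listed CpG-poor promoter region. Irgm2 had 1.23, Igtp 1.10 and Ifi47 0.71. Iigp1 had 1.77 and Tgtp2 1.49, both with copies elsewhere. Gbp6 had 1.47, Gbp3 0.78 and Gbp5 0.64, and Gbp10 (2.18) and Gbp4 (1.65) had copies. Several of these genes lie in arrays. All 8 CpG-poor promoter regions of the Ifi200 array at chr1:173491076-173942900 were positive, from 0.65 to 2.51 with a median of 1.26, and 7 held the ISRE letters. The 6 regions of the Trim array at chr7:104244251-104508200 ran from 0.97 to 3.51, with the letters in 5. The 4 regions of the Ifit array at chr19:34583051-34641000 ran from 1.09 to 2.16, with the letters in all 4. The members of the list with copies that are not named elsewhere were Slfn9 (1.77), Trim12c (1.72), Samd9l (1.65), Ifi213, Ifi206, Ifi204, Ifi209, Trim30d, Ifi211, Ifit3b and Ifit1bl1, the last 8 from 1.34 down to 1.09. Genes of an array share descent and sequence, so these counts are not independent.

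**Figure D3:**
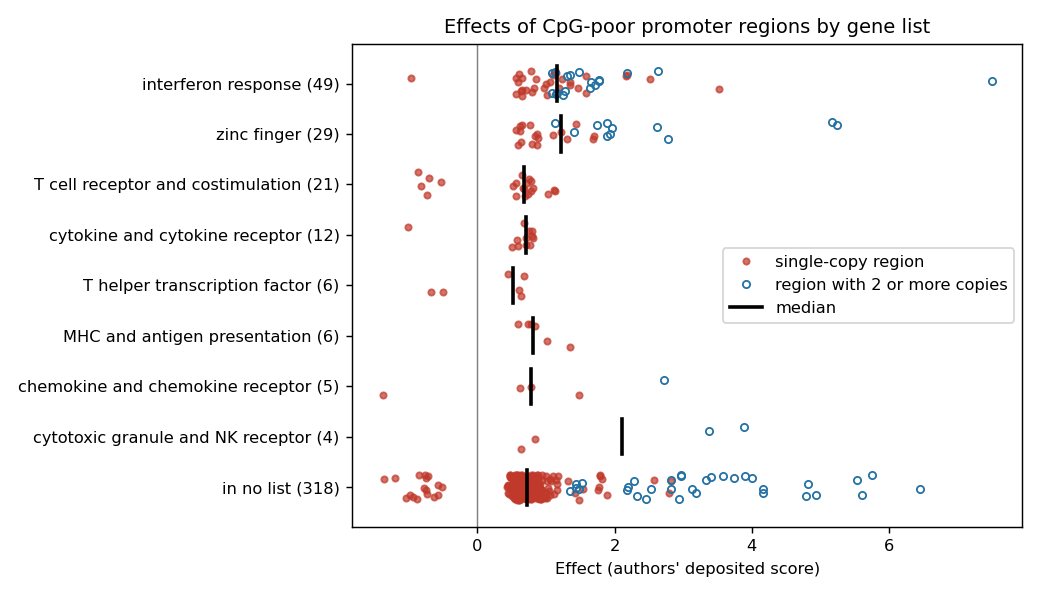
Effect of each CpG-poor promoter region (x axis, the authors' score) by gene list (y axis, number of regions in brackets); red points are regions with a unique sequence, open blue circles regions with 2 or more copies, and black bars medians. The interferon and zinc finger medians lie at 1.16 and 1.22, and the T cell receptor list at 0.68 holds 5 negative regions.

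The ISRE letters were found in 73 of the 480 regions (15.2%), beside 6.25% of other promoters, 9.31% of CpG-poor distal regions and 7.83% of all listed regions. Regions differ in length, and in the central 200 bp the shares were 9.38%, 1.22%, 5.08% and 3.23%. CpG-poor promoters with a match were positive in 72 of 73 regions (98.6%, 92.6 to 99.8) and those without in 379 of 407 (93.1%, 90.2 to 95.2), so the intervals overlapped. Their median effects were 1.09 and 0.72. Among regions with a unique sequence the medians were 0.81 and 0.68. Within the interferon list, 33 of 49 regions held a match, with a median of 1.24 (1.10 to 1.58). The 16 without had a median of 0.91 (0.64 to 1.47), so the intervals overlapped, as they did in its regions with a unique sequence. Among CpG-poor promoters of genes outside the list all 40 with a match were positive, beside 92.8% of the 391 without. Their medians were 0.80 and 0.72. Of the 73 matches nearest a start, 38 lay in the 200 bp upstream of it and 27 in the 100 bp upstream; in the interferon list 24 of 33 and 18 of 33 did. The centre of the match lay 56.5 bp upstream of the start in Trim5, 61.5 in Isg15, 40.5 in Zbp1 and 30.5 in Ifi203. The negative region of Dhx58 also held a match, which lay across the start. Shisa5, a gene outside the list, had a match 39.5 bp downstream of its start and an effect of 2.58.

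**Figure D4:**
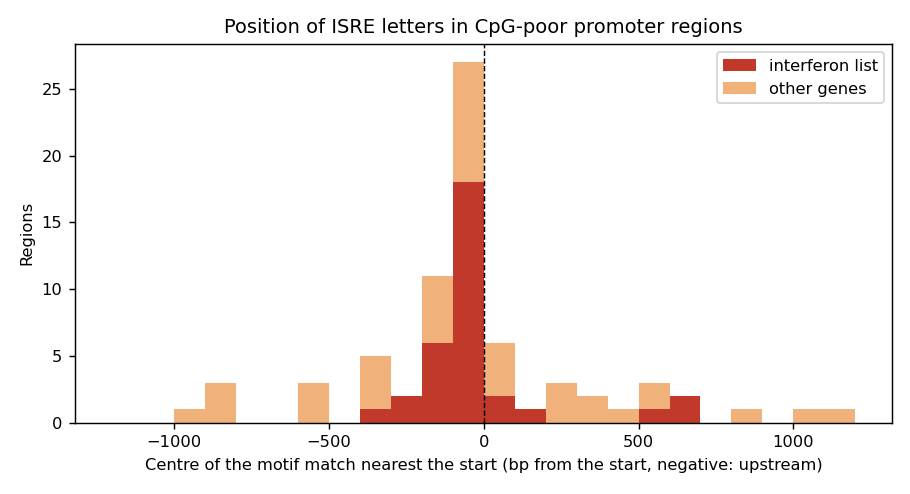
Number of CpG-poor promoter regions (y axis) by the position of the ISRE letters nearest the start (x axis, bp from the start, upstream negative, 100-bp bins), for the interferon list (red) and other genes (orange). The bin just upstream of the start holds 27 of the 73 regions, 18 of them of the interferon list; positions depend on where the listed regions lie.

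Genes of the T cell receptor and its costimulators had 21 regions, all with a unique sequence, of which 16 were positive (76.2%, 54.9 to 89.4), with a median effect of 0.68. The highest was Tigit, an inhibitory receptor (1.13, chr16:43664026-43665125), then Gimap9, a GTPase of lymphocytes (1.12), and Coro1a, a regulator of actin (1.03). The receptor's proximal kinases were close to each other: Lck had 0.79 and Zap70 0.74. The surface markers Cd52 (0.78), Thy1 (0.68) and Cd6 (0.65) were positive, as were Ptprcap (0.69), a partner of CD45, Itgb7 (0.56), an integrin chain, and Pdcd1, which encodes the inhibitory receptor PD-1 (0.52). Gimap8 had regions of 0.81 and 0.66 and Spn, which encodes CD43, regions of 0.73 and 0.57. The 5 negative regions belonged to the signalling adaptors Sh2d2a (-0.86) and Tespa1 (-0.82), to Slamf7 (-0.73) and Btla (-0.53), both cell-surface receptors, and to Tagap (-0.70), a GTPase-activating protein. Lck and the negative region of Csf2, described next, are shown from -100 to -1, with AGGAAG or AGGAAA, searched as core letters of ETS factors, and TGTGGTT or TGCGGTT, searched as RUNX letters, in capitals on either strand.
Lck: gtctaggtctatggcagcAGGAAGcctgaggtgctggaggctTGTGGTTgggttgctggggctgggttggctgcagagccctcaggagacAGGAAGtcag
Csf2: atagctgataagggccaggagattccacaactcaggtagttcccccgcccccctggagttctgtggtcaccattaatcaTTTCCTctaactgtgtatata
The windows are chr4:129573642-129573741 (Lck) and chr11:54249668-54249767 (Csf2), both on the minus strand. Lck held ETS letters at 82 and 10 bases before the start and the RUNX letters at 58, and Csf2 held ETS letters at 21. Such letters are common: the ETS letters were found in 70.6% of CpG-poor promoters and 72.9% of other promoters, and the RUNX letters in 14.8% and 13.7%.

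Cytokines and their receptors had 12 regions, of which 11 were positive, with a median of 0.71. Il3 and Csf2 are neighbouring cytokine genes that activated T cells induce. The region at the start of Il3 had an effect of 0.77 (chr11:54267151-54267650) and that of Csf2, which encodes GM-CSF, an effect of -1.02 (chr11:54249126-54249825). Il15 had 0.81, Osm regions of 0.80 and 0.68, Tnfsf13b (BAFF) 0.79, Tnfsf11 (RANKL, also in the T cell list) 0.76 and Il34 0.71. Of the receptors, Il12rb1, a chain of the interleukin-12 receptor, had 0.71, Il2rb 0.60 and Il18r1 0.50, and the cytokine Il16 had 0.58. None of the 12 had an effect above 1. Chemokines and their receptors had 5 regions. Ccl5, a chemokine of effector T cells, had 1.48 (chr11:83530351-83530775), Cxcl3 0.78 and Ccr8 0.63, and Ccl27a had 2.72 with 9 copies. Cxcl9, which interferon-gamma induces, had the lowest effect of all 480 (-1.38), and its region lay 616 bp downstream of the start in an intron (chr5:92327226-92327700, 41.9% GC). In the authors' deposited table its adjusted p was 0.00748. Ccl5 is shown from -100 to -1 for its TATA box, in capitals, and Cxcl9 for the central 100 bases of its region, with the ETS letters in capitals.
Ccl5: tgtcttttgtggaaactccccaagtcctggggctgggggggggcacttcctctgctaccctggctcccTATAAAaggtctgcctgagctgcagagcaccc
Cxcl9: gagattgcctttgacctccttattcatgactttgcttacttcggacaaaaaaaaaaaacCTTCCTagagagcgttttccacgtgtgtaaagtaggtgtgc
The windows are chr11:83530519-83530618 (Ccl5) and chr5:92327413-92327512 (Cxcl9), both on the minus strand.

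Transcription factors of T helper cells had 6 regions. Ikzf4 (0.44), Runx1 (0.68) and Satb1 (0.61) were positive, and Elf1 (-0.68) and Maf (-0.50, a region of 50 bp) were negative. Satb1 and Maf each also had a CpG-richer promoter region of the opposite sign, given further on. Tbx21, which encodes T-bet, the factor that defines Th1 cells, had a region of 50 bp with an effect of 0.64, given whole here on the strand of the gene.
Tbx21: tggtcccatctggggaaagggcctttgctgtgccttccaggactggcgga
It lies at chr11:97115576-97115625 on the minus strand, from 294 to 245 bases before the start, and holds none of the ETS or RUNX letters above. Most listed promoters of such factors were CpG-rich: 22 of 28 regions had a ratio of 0.4 or more, of which 15 were positive. Genes of cytotoxic granules and natural killer receptors had 4 regions, all positive. The receptor genes Klrc3 (3.88) and Klrc2 (3.38) have 2 copies each, and Serpinb6b (0.84) and Ctsw (0.63), a cathepsin of cytotoxic cells, are unique. Genes of MHC and antigen presentation had 6 regions, all positive: Tap2, a peptide transporter (1.34), H2-T24 (1.01), Tapbp (0.84), and the class II genes H2-Aa (0.78), Cd74 (0.73) and H2-Eb1 (0.60).

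Zinc finger genes had 29 regions of 28 genes, all positive (88.3 to 100), with a median of 1.22, and 11 had copies elsewhere. The 94.0% of all 480 CpG-poor promoters lay within that interval. The CpG-richer promoter regions of zinc finger genes were positive in 157 of 206, with a median of 0.73. The 18 CpG-poor regions with a unique sequence had a median of 0.85 and reached 1.70 (Zfp951). The highest were Zfp931 (5.23) and Zfp970 (5.17) on chromosome 2, with 36 and 15 copies of their central 300 bp. The first 56 bases from the CCAAT box, bound by NFY and in capitals, are shown for 5 genes of this array, chosen after their values were seen, to show how alike these 5 are. The other promoters of the array were not compared.
Zfp931: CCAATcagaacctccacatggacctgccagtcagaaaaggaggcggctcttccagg
Gm14418: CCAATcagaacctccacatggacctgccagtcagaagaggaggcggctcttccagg
Gm14305: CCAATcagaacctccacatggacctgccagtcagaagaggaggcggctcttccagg
Gm14325: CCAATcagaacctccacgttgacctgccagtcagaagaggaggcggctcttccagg
Zfp971: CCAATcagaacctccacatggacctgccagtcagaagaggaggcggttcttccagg
They lie on the minus strand at chr2:178078478-178078533 (Zfp931), chr2:177398343-177398398 (Gm14418) and chr2:177840357-177840412 (Gm14325), and on the plus strand at chr2:176708249-176708304 (Gm14305) and chr2:178023206-178023261 (Zfp971). Gm14418 and Gm14305 were identical over the 56 bases, and the other pairs matched at 53 to 55 of them. The effects of the 5 regions were 5.23, 3.33, 4.81, 3.74 and 1.75 in the order shown. The highest and the lowest differed by 3.49, and the stretches shown for them matched at 54 of 56 bases. The whole regions, of 750 bp in Zfp931 and 725 bp in Zfp971, were not compared. In the zinc finger arrays of chromosome 13, with unique sequences, the 6 regions at chr13:67082076-67400050 ran from 0.56 to 1.69 and the 5 at chr13:67609176-67780325 from 0.62 to 1.22.

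Lists of other tissues and functions had few CpG-poor promoter regions, and their values are given by member. Ugt1a7c (2.39), Itih5 (1.02) and Ugt1a10 (0.96) were the highest of 6 positive regions of liver and drug metabolism genes, 4 of which belong to the Ugt1a array of glucuronosyltransferases. Of the solute carriers, Slc28a2 and Slc25a25 (1.03), a mitochondrial carrier, were the highest of 4 positive regions. Gpr137b (2.77, with 2 copies), Gpr132 (0.78) and Gpr171 (0.68) were the G protein-coupled receptors. The markers of B cells and myeloid cells were Treml2 (1.12), Lilrb4a (0.95) and Cd37 (0.67), a tetraspanin that lymphocytes also express. Ion channels and neurotransmitter receptors had 7 regions with a median of 0.61, among them Kcnn4, a potassium channel of activated T cells (0.69), Trpv2 (0.68) and the negative Grik4. Izumo1r (0.74), the egg receptor of fertilisation that regulatory T cells also carry as a folate receptor homologue, was the 1 region of the testis and sperm list. Olfr538 (1.24, with 3 copies) and Mrgpre (0.60), S100a13 (0.66) and S100a10 (0.59), Hnrnpf (0.69) and Eif5a (0.51), and Hist1h4j (0.98) and Hist2h3c1 (-0.55) completed the lists.

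Most of the highest effects were in regions with copies elsewhere in the genome. A region was counted as having copies when the 300 bp around its centre matched at least 2 places of the genome, itself included. All 71 such CpG-poor promoters (14.8%, beside 1.75% of other promoters and 7.44% of CpG-poor distal regions) were positive. Their median was 2.32, where the 409 unique ones had a median of 0.70. The other groups were alike in this. Other promoters with copies were positive in 110 of 114, with a median of 2.26. CpG-poor distal regions with copies were positive in 390 of 394, with a median of 1.99. Effects above 2 were found in 48 of 480 regions (10.0%, beside 1.26% of other promoters and 5.52% of all listed regions), and 40 of the 48 had copies. Among unique regions 8 of 409 (1.96%) had an effect above 2, beside 0.235% of unique other promoters and 5.39% of unique CpG-poor distal regions. Reads from near-identical copies cannot always be told apart, and how many reads of these regions could be placed was not examined. No source used here says how the authors treated such reads, so these effects are uncertain. The 10 highest effects all had copies: Gvin1, a very large interferon-induced GTPase (7.50), Gm14399 (6.45), Gm2237 (5.75), Gm8857 (5.60), Gm14295 (5.54), Zfp931, Zfp970, Gm32687 (4.93), Gm14305 and 9930111J21Rik1 (4.79). The 8 unique regions above 2 were Trim5, Rnaset2b (2.82), Gm45844 (2.79), Shisa5, Ifi203, Ugt1a7c, a glucuronosyltransferase (2.39), Zbp1 and Ifit1bl2.

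The 29 negative regions were poorer in GC and narrower than the positive ones. Their median GC content was 46.0% beside 53.5%, and 14 of 29 were under 45% GC (48.3%) beside 9.53% of the positive regions. Their median width was 375 bp beside 525 bp, and 9 of 29 were under 100 bp. The start lay inside 11 of the 29 and 249 of the 451. None had copies. After Cxcl9 the lowest were 4930402F06Rik (-1.36), Grik4, a glutamate receptor (-1.21), Nek5, a kinase (-1.20), Plpp1, a lipid phosphatase (-1.04), Csf2, Ash1l, a histone methyltransferase (-0.98), Dhx58, Samsn1 (-0.94) and Hmox2, a heme oxygenase (-0.88).

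The region covered the start in 260 of 480 (54.2%), beside 87.0% of other promoters. Those 260 were positive in 95.8% (92.6 to 97.6) with a median of 0.78, and the 220 that did not reach the start in 91.8% (87.4 to 94.8) with a median of 0.69. In steps of 250 bp the share ran from 86.0% (500 to 750 bp downstream, 37 of 43) to 100% (750 to 1000 bp downstream, 44 of 44), and between 250 bp upstream and the start it was 133 of 140. The 500 bp around the start itself had a ratio under 0.4 for 315 regions and of 0.6 or more for 92, which are CpG-poor flanks of CpG-rich starts. These 92 were positive in 89.1% (81.1 to 94.0) with a median of 0.66, beside 94.9% (91.9 to 96.8) and 0.78 for the 315. By annotation 223 centres lay in introns, 125 between genes, 86 in UTR exons, 35 in coding exons and 11 in non-coding exons, with 91.4% to 100% positive in each. Across the 480 regions the effect had a Spearman correlation of 0.24 with width and -0.18 with GC content, and of -0.04 with CpG ratio. In the 409 regions with a unique sequence these were 0.31, -0.05 and 0.05. The regions share both libraries.

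**Figure D5:**
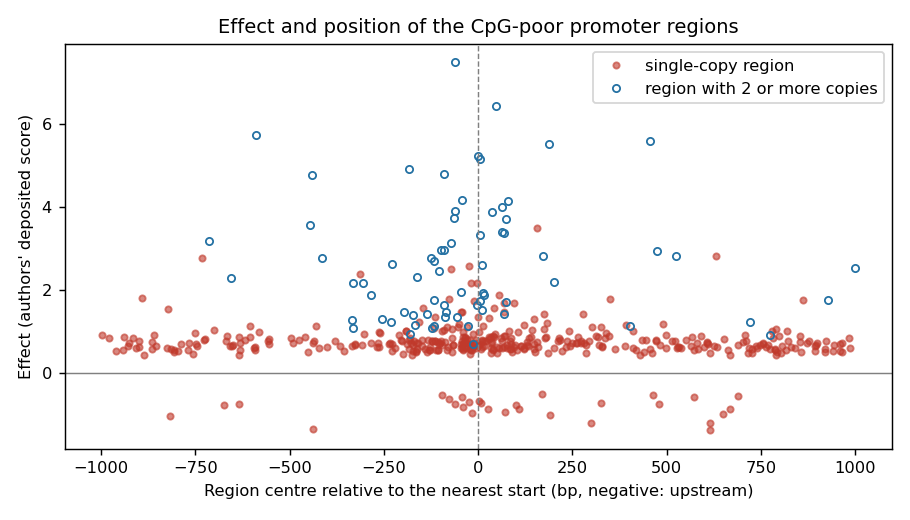
Effect of each CpG-poor promoter region (y axis, the authors' score) by the distance of its centre from the nearest protein-coding start (x axis, bp, upstream negative); red points are unique regions and open blue circles regions with 2 or more copies. The unique regions have a median of 0.70, and 40 of the 48 regions above 2 have copies.

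A TATA box, TATAAA or TATATA beginning 40 to 20 bases before the start, was found at the starts of 8 of the 480 regions (1.67%) and of 1.15% of other promoters. Of the 315 regions whose start itself had a ratio under 0.4, 6 had one (1.90%). In genes whose starts all had a ratio under 0.4, 6.38% of the starts in the genome had one, beside 1.16% in other genes. Of the 8, 7 were positive, among them Apol7e (2.63), Iigp1, Ccl5, Ifit3 (1.31) and Cxcl3, and Sod1, a superoxide dismutase, was negative (-0.58). Of the other letters searched, CCAAT was found in 41.2% of the CpG-poor promoters and 57.9% of other promoters, and regions with it were positive in 193 of 198 (97.5%, 94.2 to 98.9), beside 91.5% of regions without it. The NF-kB letters (GGG and TTTCC with 2 free bases between, GGG and TTCC with 3, or GGGAA and CC with 3) gave 101 positive of 102, beside 92.6% without them, and the STAT letters TTCNNNGAA 88 of 89, beside 92.8%. Shares below the 94.0% of all 480 were found, for example, with the T-box letters AGGTGTGA or AGGTGTTA (11 of 13), TATAAA anywhere in the region (52 of 59, 88.1%), the PU.1-type ETS letters GAGGAAGT (30 of 34, 88.2%) and the GATA letters AGATAA or TGATAA (91 of 100). Wider regions hold more letters of every kind, so the letters were also read in the central 200 bp. There CCAAT gave 95.6% positive (90.1 to 98.1) beside 93.5% without it (90.5 to 95.6). The NF-kB letters gave 97.8% beside 93.6%, and the STAT letters 97.9% beside 93.5%, with overlapping intervals each time. TATAAA gave 14 of 18, the PU.1-type letters 16 of 18, the GATA letters 21 of 26 and the T-box letters 2 of 3. The part of width was not tested further. The AP-1 letters TGACTCA or TGAGTCA were found in 16.5% of CpG-poor promoters, 8.42% of other promoters and 30.9% of CpG-poor distal regions. The GC box GGGCGG (27.5% beside 87.9%) and the ETS letters CCGGAA (15.4% beside 48.6%) contain CpG, so the rule itself lowered their shares. The p53 letters (CATG, any 6 bases and CATG again) were found in 8 CpG-poor promoters, all positive, from 0.70 (Dnm3) to 1.48 (2010005H15Rik). One was Cdkn1a, the cell-cycle inhibitor and p53 target (1.11, chr17:29090851-29091050). Its match began 48 bases before the nearest annotated start, and other starts of the gene were not examined. Cdkn1a also had a promoter region with a ratio of 0.4 or more and an effect of 0.96.
Cdkn1a: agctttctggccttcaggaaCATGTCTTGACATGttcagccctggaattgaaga
This window is chr17:29090911-29090964 on the plus strand, with the p53 letters in capitals.

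All 16 genes with 2 or more CpG-poor regions (35 regions) had 1 sign, which was positive each time, as it was in 94.0% of all 480 regions. Among them were Csrnp1 with 4 regions from 0.48 to 0.84, Plec with 3 from 0.56 to 0.72 and Mthfs with 2 of 0.99 and 2.18. Slc28a2, a nucleoside transporter whose regions have copies, had 0.71 and 3.71. The rest were 3110001I22Rik, Arhgef2, Cenpx, Gimap8, Kcnab2, Mark2, Osm, Rnf213, Sipa1, Spn, Syne3 and Zfp937, with effects from 0.44 to 1.89. For 114 genes the table also held a promoter region with a ratio of 0.4 or more, and in 25 of them a region of each class had opposite signs. Of all other promoters, 71.8% were positive. The counts of genes with equal or opposite signs were not tested against these shares. Satb1, which encodes a chromatin organiser of T cells, had a CpG-poor region of 0.61 and a CpG-richer one of -1.42. Agpat3, an acyltransferase, had 0.74 and -2.55, and Epb41, which encodes a membrane skeleton protein, 0.79 and -2.02. Of the genes named earlier, Irf5 had 0.85 and -0.78, Maf -0.50 and 0.86, and Sod1 -0.58 and 0.97. Hmox2 had -0.88 beside 2 CpG-richer regions of -0.92 and 0.81.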

How the data were processed

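Output libraries of STARR-seq were made from 2 biological replicates, and 1 table of regions on mm10 was used. Per the file headers, the table derives from the alignments of both libraries, so the authors' values pool the replicates and no comparison between replicates was made. No aligner, region caller or test is named in the sources used here. Each deposited row holds a signed effect, which is a score without a stated scale, log base or direction. It also holds the authors' p-value, its adjusted value (q-value) and a width that fits starts counted from 1. Library depth is unknown.

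Sequence came from GRCm38 and starts from GENCODE M21 basic protein-coding transcripts. CpG ratio, GC content, soft-masked share, motif letters (34 sets, both strands) and distances came from Python 3.11.15 with pandas 2.3.3 and pysam 0.24.0, and Wilson intervals with scipy 1.17.1. Copies were matches of the central 300 bp over 240 bp or more at an identity of 95% or more, found with minimap2 2.31 (k = 19, w = 10, N = 50, p = 0.5). The calculations were tested on simulated data. GC classes of 5 percentage points were used to standardise shares.

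The regions and the 22 gene lists were chosen with earlier results of these data known, so no test was run over them. Named genes were the 10 highest and 10 lowest effects, the 3 largest absolute effects of each list, every member of the T cell, cytokine, chemokine, cytotoxic and interferon lists, genes with 2 or more regions and the 3 regions on each side of the CpG limit. Alternatives were an adjusted p under 0.001, windows of 500 and 2000 bp, CpG limits of 0.3 and 0.5, all basic transcripts, unique regions, at most 50% masked, starts from 0, 1 region per gene and the CpG ratio over 500 bp.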

Additional observations from a re-analysis of the deposited data

How the results depend on the processing

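The 6 values on the number, direction and size of CpG-poor and other promoters were recomputed under each of 11 alternatives. The share positive with and without the ISRE letters was recomputed under 3 (adjusted p, unique regions and soft-masked share). This gave 72 values, of which 59 stayed within the 95% interval of the reported value (for counts, within 1.5 times). Counts, shares and medians of positive effects cannot change sign. The median over all CpG-poor promoters could, and it stayed positive under each alternative. The number of CpG-poor promoters was 272 at an adjusted p under 0.001, 281 at a ratio under 0.3 and 721 at a ratio under 0.5. The share of positive CpG-poor promoters ranged from 92.2% to 95.6%. Their median positive effect was 0.93 at an adjusted p under 0.001, 0.79 in the 500 bp window and 0.72 in unique regions, and their median over all 0.91, 0.78 and 0.70. Other promoters were positive in 68.9% at an adjusted p under 0.001, 72.9% in the 500 bp window and 73.8% with 1 region per gene, and their median positive effect was 0.89 at an adjusted p under 0.001, below that of CpG-poor promoters there and above it in the reported values. A stricter adjusted p keeps larger effects by construction. Among values added after seeing the data, the share with an effect above 1 was 13.9% in unique regions, 32.3% in the 500 bp window and 43.4% at an adjusted p under 0.001, the share above 2 fell from 10.0% to 1.96% in unique regions and the interferon median from 1.16 to 1.01; the median with the ISRE letters was 1.14 in the central 200 bp. No paired analysis was possible because the table pools both replicates, and for the same reason no replicate could be left out. Depth and input of each region were not used here, so the precision of an effect is known only through the deposited p-value.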
